A study of Mus musculus with 6 samples.

Results

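The genes described here encode the core machinery of autophagy and mitophagy in the mouse, 37 genes listed by name. Of these, 35 had a probe set annotated to them alone on the Affymetrix Mouse430_2 array, among 18193 genes represented in that way. No probe set here was paired with Optn, and Bnip3l was covered only by 3 probe sets that the annotation also assigns to the pseudogene Bnip3l-ps. RNA came from Ter119-positive fetal liver cells, the maturing erythroid cells of the fetal blood-forming organ, at embryonic day 14.5. The study compared wild type embryos (3 arrays) with STAT5 KO embryos (3 arrays), and each array carried a pool of 3 to 5 embryos of 1 genotype. Apart from that genotype no treatment or transgene was described. Which STAT5 alleles were deleted, and the strain, are not given in the sources used here. STAT5A and STAT5B are the transcription factors activated downstream of the erythropoietin receptor.

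Autophagy encloses cytoplasm in a double membrane, the autophagosome, and delivers it to the lysosome. The ULK kinase complex starts the process, a lipid kinase complex around PIK3C3 and beclin 1 marks the growing membrane, and ubiquitin-like conjugation attaches ATG8 proteins (the LC3 and GABARAP families) to it, where they bind cargo receptors. In mitophagy the cargo is a mitochondrion, and red cell precursors are known for clearing all of theirs in this way, with BNIP3L (NIX) as receptor. Transcript levels were measured here, not the flux of material through the pathway.

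All values are signals, the array's brightness for a probe set, on a scale set so that the trimmed mean of each array is 500, and differences are log2 of the STAT5 KO signal minus log2 of the wild type signal. In a pool of cells, fewer cells of a type and less RNA per cell cannot be told apart. The control level, a signal of 162.5, is the 95th percentile of the signals that 27 probe sets for Bacillus subtilis RNA gave on the 6 arrays, and a gene below it in both groups is not given a fold. All 4 probe sets of Stat5a and Stat5b had lower signals on every knockout array than on every wild type array. In 3 of them the knockout mean lay below the control level, so that these were at least 1.33-fold to at least 3.45-fold lower, and the remaining Stat5b probe set differed by -1.29. Of 13 measured erythroid genes, 12 lay above the control level in both groups, among them the anion exchanger Slc4a1 with a mean log2 signal of 15.8 in wild type and 15.6 in knockout. The exception was Hba-a1, whose only probe set not shared with its near-identical copy had 8.48 and 7.16. In the knockout 12 of the 13 were lower, 5 of them on every array, with a median difference of -0.22. Of 7 lymphoid genes, 5 (Cd3e, Cd79a, Cd79b, Rag1 and Vpreb1) lay below the control level in both groups, while Ptprc and Il7r lay above it. Genes of other cells were also present. The summed signal of 14 hepatocyte genes was 167627 to 285096 in wild type and 144990 to 159039 in knockout, with the groups apart, and that of the 13 erythroid genes was 328474 to 333392 and 262975 to 325473, also apart. For 12 endothelial genes the sums were 3776 to 6291 and 3580 to 4040, for 11 macrophage genes 24230 to 41011 and 29900 to 42287, for 7 megakaryocyte genes 4025 to 14475 and 4576 to 5838, for 12 granulocyte and mast cell genes 5062 to 9002 and 3116 to 9319, and for 7 lymphoid genes 1255 to 1406 and 1224 to 1433, overlapping in each case. Gene by gene, all 14 hepatocyte genes were lower in knockout, 9 of them on every array, with a median difference of -0.54. Of the 12 endothelial genes 10 were lower in knockout and 2 higher, with a median difference of -0.39. Eng and Lyve1 were lower on every knockout array, and 4 of the 12 lay below the control level in both groups. Of the 12 granulocyte and mast cell genes 10 were lower and 2 higher, with a median of -0.28. For 18 transcripts known to be induced by cell handling the sums were 61721 to 73121 in wild type and 78080 to 93917 in knockout, which did not overlap. The part of these shifts in the differences below was not tested.

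No gene of the machinery passed the test across all genes. None of the 35 genes passed an adjusted p of 0.05 in limma's moderated test, where 0.0440% of all genes did, and the smallest adjusted p was 0.509, for Gabarapl1. With a mean-variance trend in the same model the count was also 0, against 0.440% of all genes. An unadjusted p under 0.05 was reached by 2 members, Gabarapl1 and Ambra1, both higher in the knockout, where 3.41% of all genes were higher and 5.50% lower. That count of members was 0 without STAT5 KO replicate 2, 1 without wild type replicate 2 and 4 without wild type replicate 3. The shares of all genes in those fits, in either direction, were 7.76%, 7.17% and 11.4%. Gabarapl1 kept an unadjusted p under 0.05 in 5 of the 6 fits with 1 array left out and Ambra1 in 2 of 6, and the second member called was Bnip3 without STAT5 KO replicate 1 and Atg10 without STAT5 KO replicate 3. Every knockout array lay above every wild type array for 6 members (Gabarapl1, Ambra1, Atg4b, Atg9a, Atg3 and Sqstm1), against 7.02% of all genes, and below for 1 member (Wipi1), against 9.85% of all genes. Of the 12442 genes above the control level, 1138 were higher and 1355 lower without overlap. After median centring of the arrays the members' counts were 8 and 0, beside 15.7% of all genes apart in either direction.

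Most of the differences were small. Of the 35 genes, 15 had a positive and 20 a negative difference, and their median was -0.03, beside -0.08 over all genes and -0.05 over the 12442 genes above the control level. Under median centring, which moved the median of all genes to 0.03, the members' median was 0.08. A difference of over 0.5 on the log2 scale was seen in 5 members (14.3%), Gabarapl1, Ambra1, Bnip3 and the dim Atg10 and Atg16l2, and 29.1% of all genes and 20.1% of those above the control level did. For 27 members (77.1%) the 95% interval of the difference lay within 1 log2 unit either way, which leaves out a 2-fold change in either direction. The same held for 46.6% of all genes and for 63.2% of genes above the control level. Intervals within 0.5 were reached by 3 members, so for most of them a change of 1.41-fold lies within the interval. Replicates of the members were close, with a median SD of 0.20 in wild type and 0.19 in knockout.

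**Figure D1:**
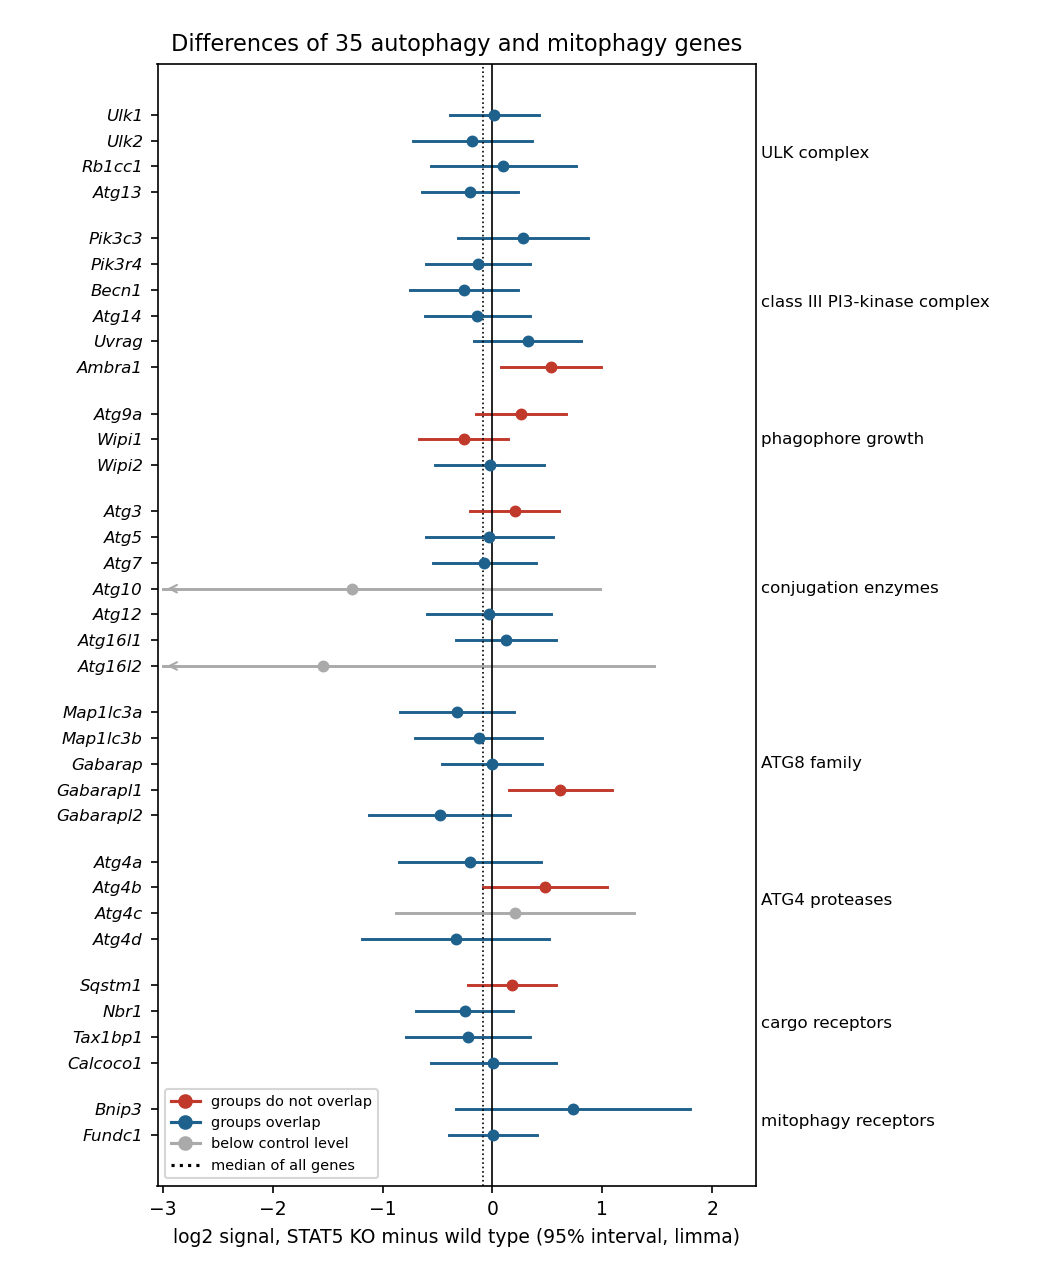
Difference in log2 signal between STAT5 KO and wild type (horizontal axis, points, with 95% intervals from limma) for each of 35 genes, ordered by role, with 3 arrays per group. Red points mark the 7 genes whose groups do not overlap, grey points the 3 genes below the control level, arrows intervals that run past the axis, and the dotted line the median of all genes at -0.08. Most points lie close to 0, and the intervals of Gabarapl1 and Ambra1 alone lie wholly on one side of it.

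The clearest difference was in the ATG8 family, the ubiquitin-like proteins that coat the autophagosome and bind its cargo. Gabarapl1 had signals of 1962, 1718 and 1615 on wild type arrays 1 to 3 and of 2497, 3130 and 2517 on knockout arrays 1 to 3. All knockout arrays lay above all wild type arrays. Its mean log2 signal was 10.78 ± 0.14 (SD, n = 3) in wild type and 11.40 ± 0.19 (SD, n = 3) in knockout. The difference was 0.62 (SE 0.191, 95% interval 0.15 to 1.09), or 1.54-fold, with a limma adjusted p of 0.509 and of 0.143 in the model with trend, and the adjusted p ranged from 0.143 to 0.693 over the alternatives. A second probe set of the gene, with signals of 729 to 967 in wild type and 1189 to 1348 in knockout, differed by 0.56, and its groups did not overlap either. Both probe sets thus gave the same direction, and the difference stayed between 0.51 and 0.70 with any 1 array left out.

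The promoter windows of members were searched for the spaced palindrome bound by STAT dimers, TTCNNNGAA, which reads the same on both strands. Windows ran from 250 bases before to 50 bases after the gene start in RefSeq (GRCm38.p6), and 30 of the 37 genes had at least 1, with 34 windows in all because 4 genes have several. The motif occurred in 4 of these 34 windows (11.8%), those of Gabarapl1, Wipi1, Gabarap and Nbr1, and in 8.3% of all 32851 windows. The windows of Gabarapl1, at chr6:129532942-129533241 on the plus strand, and of Wipi1, at chr11:109611340-109611639 on the minus strand, are printed because both genes had groups that did not overlap and hold the motif, shown in capitals.
Gabarapl1: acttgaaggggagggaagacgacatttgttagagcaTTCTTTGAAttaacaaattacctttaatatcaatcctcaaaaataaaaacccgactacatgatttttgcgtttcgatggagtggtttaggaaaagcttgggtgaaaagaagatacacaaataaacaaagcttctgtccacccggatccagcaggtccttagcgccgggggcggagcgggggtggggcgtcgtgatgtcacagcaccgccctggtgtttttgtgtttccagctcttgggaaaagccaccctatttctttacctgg
Wipi1: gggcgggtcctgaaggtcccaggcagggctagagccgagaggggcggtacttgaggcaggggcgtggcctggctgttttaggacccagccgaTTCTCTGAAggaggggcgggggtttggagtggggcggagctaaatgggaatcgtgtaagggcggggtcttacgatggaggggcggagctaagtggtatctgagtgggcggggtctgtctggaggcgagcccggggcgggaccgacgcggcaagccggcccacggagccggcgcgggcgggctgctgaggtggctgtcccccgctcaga
The match begins 214 bases before the start in Gabarapl1 (TTCTTTGAA) and 158 bases before it in Wipi1 (TTCTCTGAA). In Gabarap (TTCCGAGAA) it begins 56 bases and in Nbr1 (TTCCAGGAA) 111 bases before the start, and the groups of those genes overlapped. A match of letters is a description of the sequence, not evidence of binding. The palindrome CACGTG, bound by TFEB and related factors, occurred in 5 of the 34 (14.7%: Atg14, Atg3, Atg5, Atg7 and Bnip3) and in 7.15% of all windows. The shorter core ACGTG of the hypoxia response element, searched on both strands and contained in CACGTG, occurred in 14 of the 34 (41.2%) and in 19.62% of all windows. The forkhead motif GTAAACA, on both strands, occurred in 0 of the 34 and in 3.65% of all windows.

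The other ATG8 genes had differences at or below 0 on the deposited scale, where the signs of Gabarap and Map1lc3b held in 12 and 14 of 17 alternatives and those of Map1lc3a and Gabarapl2 in all 17. Gabarapl2, a GABARAP protein also called GATE-16, had signals of 18635, 20123 and 12073 on wild type arrays 1 to 3 and of 10407, 13818 and 11573 on knockout arrays 1 to 3. Wild type replicate 3 lay among the knockout arrays, while the other wild type arrays were higher. The difference was -0.48 (SE 0.263, 95% interval -1.12 to 0.162), and a second probe set gave -0.39. Without wild type replicate 3 it was -0.71 and the groups were apart. Map1lc3a, encoding an LC3 protein, had signals of 2641, 2097 and 3156 in wild type and 1951, 2144 and 2129 in knockout, which overlapped, with a difference of -0.32 (95% interval -0.844 to 0.195). Map1lc3b, the LC3 gene whose protein is the usual marker of autophagosomes, had signals of 19141, 18659 and 13747 in wild type and 12675, 17679 and 16829 in knockout, also overlapping. Its difference was -0.13 (95% interval -0.701 to 0.447). Of its 4 probe sets, 2 were higher and 2 lower in knockout, and the dimmest, with signals of 215 to 237 in wild type and 283 to 332 in knockout, was apart with a difference of 0.43. Gabarap had signals of 17335, 17394 and 14458 in wild type and 14544, 17489 and 17001 in knockout. These groups overlapped, and the difference of -0.00 (95% interval -0.456 to 0.448) was the smallest of the family.

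Within the family, Gabarapl1 and Gabarapl2 differed in opposite directions. The log2 signal of Gabarapl1 minus that of Gabarapl2 was -3.25, -3.55 and -2.90 on wild type arrays 1 to 3 and -2.06, -2.14 and -2.20 on knockout arrays 1 to 3. The groups did not overlap, with a difference of 1.10 between their means. The pair was chosen for its opposite directions after its values were seen, so these values are a description with no test, and the difference of Gabarapl2 alone has an interval that includes 0.

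**Figure D2:**
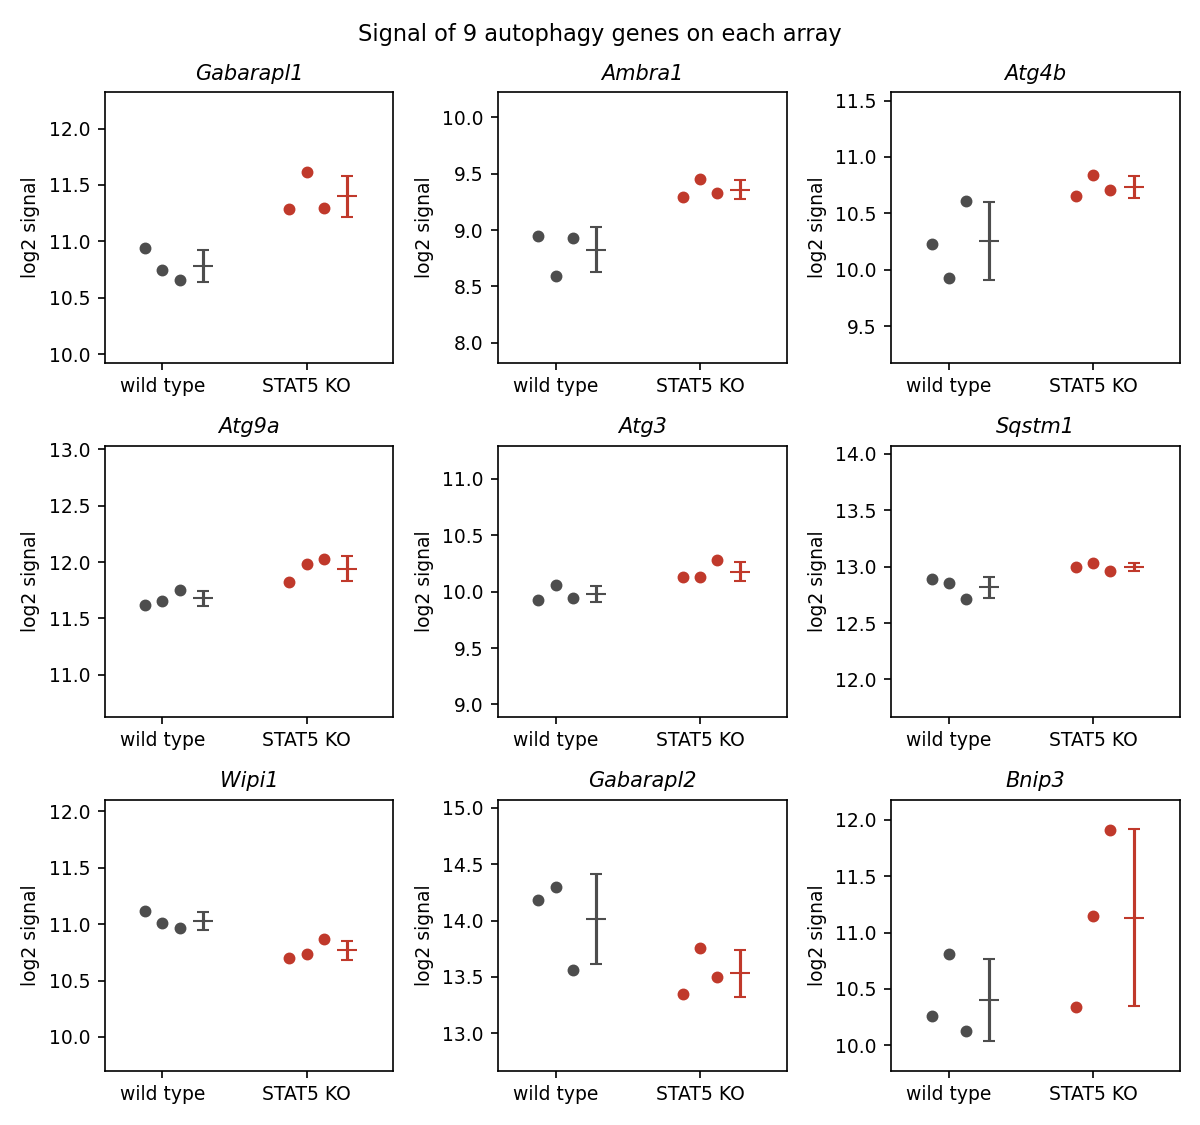
Log2 signal (vertical axis) of 9 members on each wild type (grey) and STAT5 KO (red) array, replicates 1 to 3 from left to right, with the group mean and SD beside the points. Each vertical axis spans the same range around its own centre. The groups are apart for the first 7 genes and overlap for Gabarapl2 and Bnip3.

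The lipid kinase complex held the other member with an unadjusted p under 0.05. AMBRA1 is a scaffold that binds beclin 1 and supports the activity of the ULK and PIK3C3 complexes. Ambra1 had signals of 495, 387 and 489 on wild type arrays 1 to 3 and of 627, 701 and 643 on knockout arrays 1 to 3. Every knockout array was higher, and the difference was 0.53 (SE 0.187, 95% interval 0.073 to 0.988), or 1.44-fold, from 8.83 ± 0.20 (SD, n = 3) to 9.36 ± 0.08 (SD, n = 3). Its limma adjusted p was 0.534 and ranged from 0.303 to 0.740 over the alternatives. The unadjusted p was not under 0.05 with the replicate block, with the mean of all probe sets, without wild type replicate 2, or without any of STAT5 KO replicates 1, 2 and 3. A second probe set above the control level gave 0.43 with overlapping groups, and another, below it, gave -0.06. The other 5 genes of the complex overlapped between the groups. The kinase Pik3c3 differed by 0.28 (95% interval -0.310 to 0.874), its regulatory subunit Pik3r4 by -0.13 (-0.603 to 0.340) and Becn1, encoding beclin 1, by -0.26 (-0.751 to 0.228). All 5 probe sets of Becn1 were lower in knockout, by -0.08 to -0.34, each with overlapping groups. Atg14, which directs the complex to autophagosome formation, differed by -0.14 (-0.617 to 0.338), and Uvrag, which takes its place in a complex of endosomal traffic, by 0.32 (-0.165 to 0.805).

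No gene of the ULK initiation complex had groups that were apart at its brightest probe set. The dimmest Ulk2 probe set, below the control level, was higher on all knockout arrays. Differences were 0.02 for the kinase Ulk1 (95% interval -0.388 to 0.420), -0.19 for its relative Ulk2 (-0.727 to 0.356), 0.10 for the scaffold Rb1cc1, also called FIP200 (-0.561 to 0.761), and -0.21 for the adaptor Atg13 (-0.645 to 0.234). ULK1 is the kinase known to act in mitochondrial clearance from reticulocytes, and its signals were 3445 to 3858 in wild type and 3530 to 3926 in knockout. At this probe set the interval leaves out a change of over 1.41-fold in either direction. A second Ulk1 probe set above the control level gave -0.17 (SE 0.275) with overlapping groups. Its signals were 1579 to 1749 in wild type and 1076 to 1908 in knockout.

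Of the 3 genes of membrane delivery and phagophore growth, 2 had groups that did not overlap, in opposite directions. Atg9a encodes the membrane protein whose vesicles seed the phagophore. Its signals were 3152, 3223 and 3457 on wild type arrays 1 to 3 and 3616, 4035 and 4171 on knockout arrays 1 to 3. All knockout arrays were higher, by 0.26 in the mean (SE 0.167, 95% interval -0.146 to 0.674), with a limma adjusted p of 0.655. Wipi1 and Wipi2 encode the proteins that read the lipid mark left by PIK3C3. Wipi2 differed by -0.03 (95% interval -0.520 to 0.468) with overlapping groups.

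The probe sets of Wipi1 gave both directions. The brightest had signals of 2225, 2062 and 1994 on wild type arrays 1 to 3 and of 1666, 1707 and 1866 on knockout arrays 1 to 3, so that every knockout array was lower, with a difference of -0.26 (SE 0.166, 95% interval -0.668 to 0.144) and a limma adjusted p of 0.655. The other 4 probe sets above the control level were all higher in knockout, by 0.33, 0.71, 0.63 and 0.55, and the first 3 of these had groups that did not overlap. The probe set that differed by 0.71 had signals of 288 to 393 in wild type and 508 to 720 in knockout. The sixth lay below the control level and overlapped between the groups. With the mean of all its probe sets the difference of Wipi1 was positive, at 0.62, and it was 0.55 where probe sets marked as shared between transcripts were left out, so no direction is given for the gene. Which transcripts each probe set detects was not tested.

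**Figure D3:**
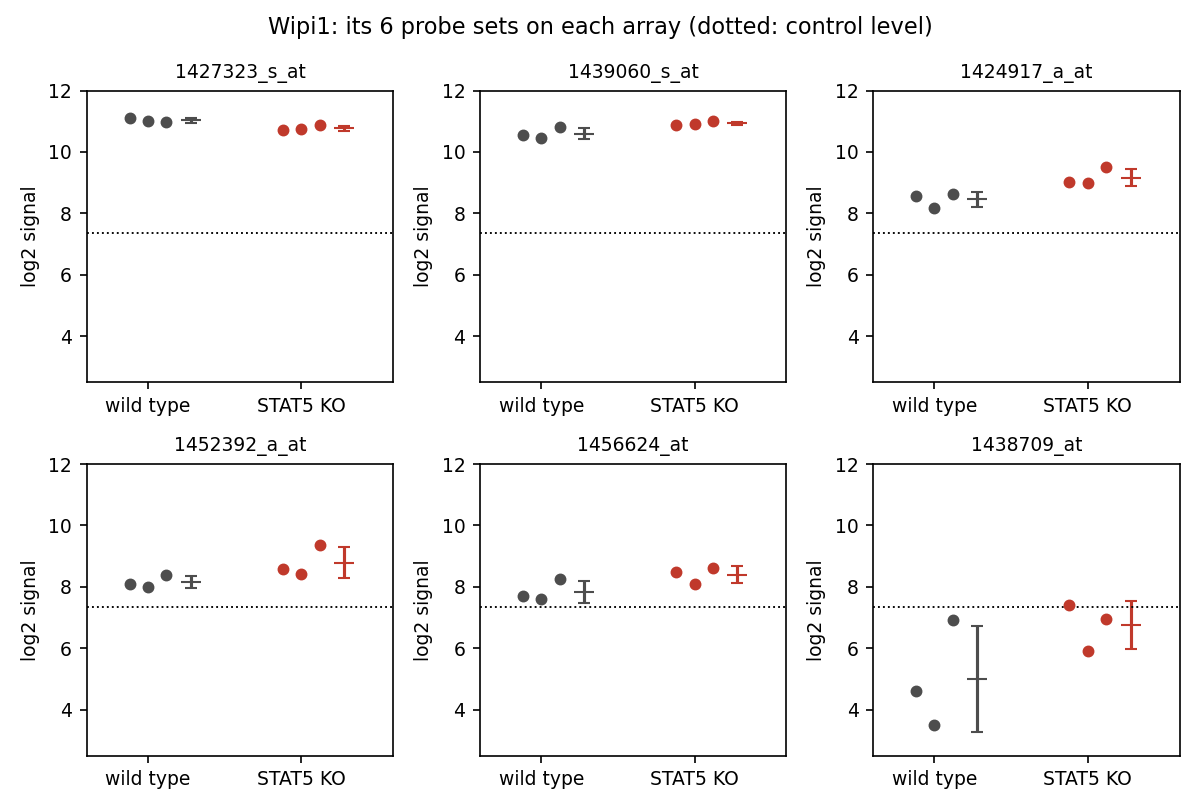
Log2 signal (vertical axis) of the 6 Wipi1 probe sets on each wild type (grey) and STAT5 KO (red) array, with group means and SDs and the control level as a dotted line. The first is lower on all knockout arrays, the next 3 are higher on all of them, the fifth overlaps, and the sixth has group means below the control level.

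Of the 7 genes that conjugate ATG8 proteins and ATG12, 1 had groups that did not overlap. Atg3, the E2-like enzyme that attaches ATG8 proteins to lipid, had signals of 975, 1066 and 982 on wild type arrays 1 to 3 and of 1118, 1120 and 1242 on knockout arrays 1 to 3. The groups did not overlap, and the difference was 0.20 (SE 0.165, 95% interval -0.201 to 0.606), with a limma adjusted p of 0.717. Averaging in its second probe set, below the control level, turned the direction, to -0.49. Atg7, the E1-like enzyme, differed by -0.07 (-0.542 to 0.395), the ubiquitin-like Atg12 by -0.03 (-0.597 to 0.531) and Atg16l1, which brings the conjugate to the membrane, by 0.12 (-0.334 to 0.575). Atg5, the partner of ATG12, differed by -0.03 (-0.606 to 0.547) at its brightest probe set, and another was higher on all knockout arrays, at 434 to 525 against 303 to 399. Atg10, the E2-like enzyme for ATG12, and Atg16l2 lay below the control level in both groups, so no fold is given. Their signals on knockout array 2, 8.8 and 2.3, were the lowest of the 6 arrays.

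The ATG4 proteases prime ATG8 proteins and later release them from the membrane. Atg4b, the most active of them, had signals of 1199, 971 and 1566 on wild type arrays 1 to 3 and of 1611, 1837 and 1673 on knockout arrays 1 to 3. All knockout arrays were higher, wild type replicate 3 by little. The difference was 0.48 (SE 0.230, 95% interval -0.084 to 1.04), with a limma adjusted p of 0.588, and its other 2 probe sets were also higher in the mean, by 0.19 and 0.67, with overlapping groups. Atg4a differed by -0.21 (-0.854 to 0.443) and Atg4d by -0.34 (-1.19 to 0.519), both overlapping, and Atg4c lay below the control level.

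Among the cargo receptors, which tie ubiquitinated cargo to ATG8 proteins, Sqstm1 (p62) had groups that did not overlap. Its signals were 7582, 7398 and 6700 on wild type arrays 1 to 3 and 8158, 8368 and 7971 on knockout arrays 1 to 3. The shift was narrow beside the level, at 0.18 (SE 0.163, 95% interval -0.221 to 0.577), with a limma adjusted p of 0.743. Nbr1 differed by -0.25 (-0.700 to 0.191), Tax1bp1 by -0.22 (-0.784 to 0.338) and Calcoco1 by 0.01 (-0.558 to 0.574), each overlapping. Both probe sets of Nbr1 and all 4 of Tax1bp1 were lower in knockout.

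The mitophagy receptors sit in the outer mitochondrial membrane and bind ATG8 proteins directly. Bnip3, a hypoxia-inducible receptor and the relative of BNIP3L, had signals of 1223, 1798 and 1119 on wild type arrays 1 to 3 and of 1297, 2270 and 3840 on knockout arrays 1 to 3. Knockout replicate 3 stood high, and knockout replicate 1 lay among the wild type arrays. The difference was 0.73 (SE 0.436, 95% interval -0.335 to 1.80), from 10.40 ± 0.36 (SD, n = 3) to 11.13 ± 0.78 (SD, n = 3), and it was 0.35 without knockout replicate 3 and 1.13 without knockout replicate 1. Hspa1a, a heat shock gene among the handling-induced transcripts, was also highest on knockout array 3, with signals of 312, 215 and 353 in wild type and 842, 1134 and 2841 in knockout, and its part in the result was not tested. Fundc1 had signals of 677, 720 and 670 in wild type and 715, 644 and 713 in knockout. These overlapped throughout, with a difference of 0.00 (95% interval -0.397 to 0.403).

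Several members have more than 1 probe set above the control level, which gave a check of direction within the arrays. Of 22 such genes, 5 were higher in knockout at every one (Ambra1, Atg4b, Gabarapl1, Rb1cc1 and Sqstm1), 7 were lower at every one (Atg13, Atg4a, Becn1, Gabarapl2, Map1lc3a, Nbr1 and Tax1bp1), and 10 gave both directions. Probe sets of a gene share their arrays and are not replicates. Over all 85 probe sets of the members, 13 were higher and 2 lower on every knockout array, beside 6.84% and 8.95% of all 45037 probe sets. None had a limma adjusted p under 0.05, while 5 had an unadjusted p under 0.05. These were both probe sets of Gabarapl1 and a probe set each of Ambra1, Wipi1 and Ulk2, the last below the control level. The share of all probe sets at that threshold is not given here, so the count of 5 is only a description.

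The genes around the machinery were described from related lists. None of the genes of the 6 lists had a limma adjusted p under 0.05 in the model without trend, while 12 of their 126 genes (9.52%) had an unadjusted p under 0.05, beside 8.9% of all genes in either direction. That share is near the background. Genes with such a p and groups apart are named below by rule, and not because their lists stood out. Other genes of the lists are named outside that rule. Among 22 other autophagy genes the median was 0.01, with 2 higher and 1 lower at an unadjusted p under 0.05. Trp53inp1, a stress-induced protein that binds ATG8 proteins, had signals of 414, 365 and 471 on wild type arrays 1 to 3 and of 784, 910 and 1013 on knockout arrays 1 to 3. All knockout arrays were higher, by 1.11 (SE 0.199), or 2.16-fold, with a limma adjusted p of 0.284 and of 0.0478 in the model with trend, and a range of 0.0478 to 0.548 over the alternatives. Its second probe set, also apart, gave 0.43. Nrbf2, a subunit of the PIK3C3 complex, was higher at 1187, 1037 and 1191 in knockout against 628, 587 and 922 in wild type, a difference of 0.70 with a limma adjusted p of 0.528. Sh3glb1 (BIF-1), which binds UVRAG and curves membranes, had signals of 23619, 26299 and 24740 in wild type and 13868, 17968 and 19257 in knockout. All knockout arrays were lower, by -0.56 with a limma adjusted p of 0.535, and its 3 probe sets were all lower without overlap.

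Control of the pathway held the widest spread among these lists. Of 32 measured genes of mTORC1 and AMPK signalling, the nutrient and energy sensors that restrain and promote autophagy, 3 were higher and 1 lower at an unadjusted p under 0.05, and the median was 0.05. Rragd, a GTPase that brings mTORC1 to the lysosome, had signals of 444, 430 and 430 on wild type arrays 1 to 3 and of 166, 148 and 133 on knockout arrays 1 to 3. The groups were well apart, and because the knockout mean lay below the control level it was at least 2.65-fold lower, with a limma adjusted p of 0.103 and a range of 0.023 to 0.577 over the alternatives. Its other probe sets, dimmer, were also lower in the mean but with overlapping groups. Of these, one lay above the control level in wild type alone and the other in neither group. Flcn, which acts on that GTPase, had signals of 664, 770 and 967 in wild type and 1321, 1187 and 1671 in knockout, higher on all knockout arrays by 0.80 (limma adjusted p of 0.485), and a second probe set gave 0.97. The AMPK subunits Prkaa1 and Prkab1 were higher on all knockout arrays too, by 0.75 and 0.44 (limma adjusted p of 0.402 and 0.559). A second Prkab1 probe set gave 0.45 with overlapping groups. The other subunits Prkaa2, Prkab2 and Prkag1 differed by -0.36, 0.01 and 0.01, all overlapping, and Prkag2 lay below the control level. In the mTORC1 and AMPK list, groups did not overlap for 4 higher and 4 lower genes, beside 7.02% and 9.85% of all genes. Of 12 transcription factors of autophagy genes, Tfeb, a master regulator of lysosomal and autophagy genes, had signals of 1542, 1342 and 1065 in wild type and 490, 553 and 754 in knockout. All knockout arrays were lower, by -1.14 (SE 0.252), or 2.21-fold, with a limma adjusted p of 0.377 and of 0.0618 in the model with trend, and a range of 0.0618 to 0.640 over the alternatives. Nfe2l2 and Ddit3 were higher on all knockout arrays, by 0.39 and 0.56, and Hif1a was lower on all of them, by -0.32. With Tfeb, groups thus did not overlap for 2 higher and 2 lower genes, beside 7.02% and 9.85% of all genes. The related Tfe3 differed by 0.18 and the forkhead factors Foxo3 and Foxo1 by 0.15 and -0.49, all overlapping, and the median of the 12 was -0.02.

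The later steps were mixed. Of 14 genes of autophagosome and lysosome fusion, 1 was higher and 1 lower at an unadjusted p under 0.05, with a median of 0.07. Stx17, the syntaxin of the closed autophagosome, had signals of 1012, 902 and 1141 in wild type and 651, 629 and 628 in knockout. It was lower on all knockout arrays by -0.67, with a limma adjusted p of 0.430, and a second probe set gave -0.68. Vps16, a subunit of the tethering complex that fusion needs, was higher on all knockout arrays by 0.60 (limma adjusted p of 0.548). Of 27 lysosomal genes, 1 was higher at that threshold, the proton pump subunit Atp6v1h by 0.66 (limma adjusted p of 0.507), and the median was 0.01. The abundant membrane proteins Lamp1 and Lamp2 differed by 0.09 and -0.25 with overlapping groups. Of 19 genes of the PINK1-parkin pathway and mitochondrial dynamics, 1 was higher at that threshold, the fusion GTPase Mfn1 by 0.51 (limma adjusted p of 0.534). A second Mfn1 probe set above the control level gave 0.76 with overlapping groups. Groups did not overlap for 4 higher genes (Mfn1, Bcl2l13, Opa1 and Tomm20) and 2 lower (Fkbp8 and Fis1), beside 7.02% and 9.85% of all genes. The kinase Pink1 differed by 0.40 with overlapping groups. The median of that list was -0.07.

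**Figure D4:**
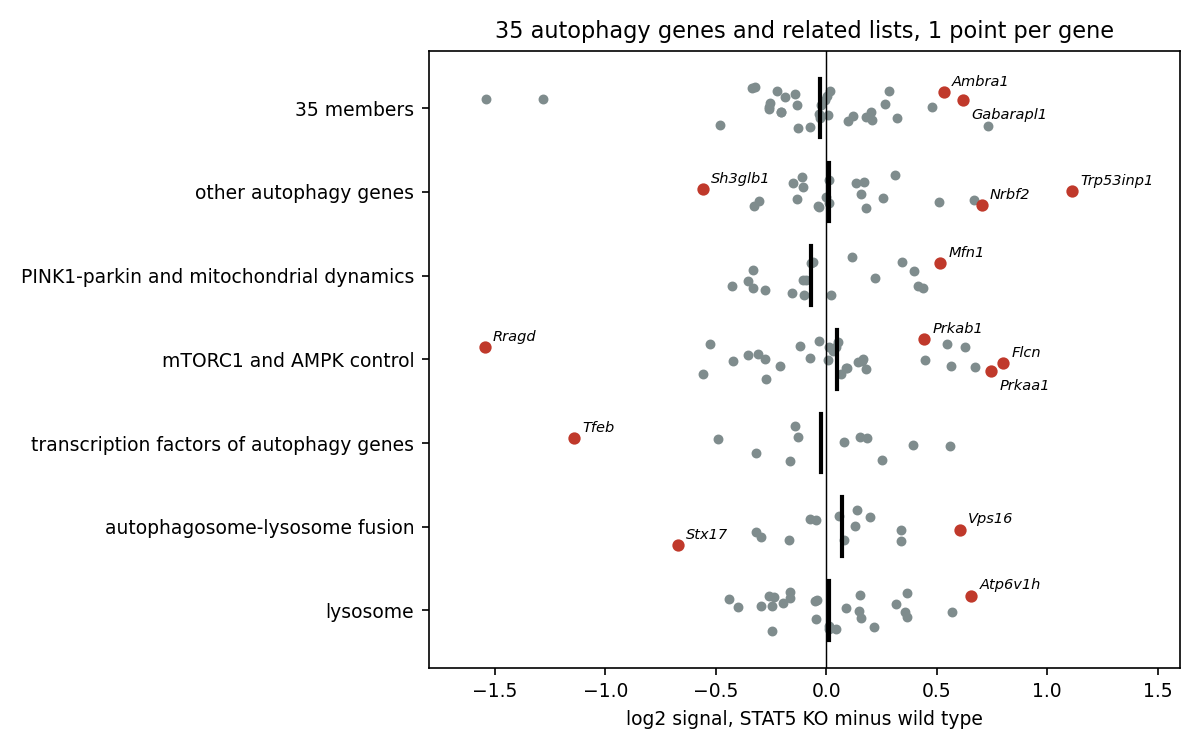
Difference in log2 signal between STAT5 KO and wild type (horizontal axis) for the 35 members and the measured genes of 6 related lists, 1 point per gene, with list medians as black bars. Red, labelled points have an unadjusted p under 0.05 in limma and groups that do not overlap. The list medians lie between -0.07 and 0.07, and Rragd, Tfeb and Trp53inp1 lie farthest out among the labelled points.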

How the data were processed

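Each of 6 RNA pools was biotin-labelled and put on 1 Affymetrix Mouse430_2 array, per the labels' protocols. The deposited values are intensities on a linear scale, with RMA and Partek named in the submitters' processing notes. The values are unlike standard RMA output, since they are linear and each array has a trimmed mean (2% off either end) of 500. The sources used here do not give the scaling method, and the number of arrays limits the precision.

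Groups came from the sample titles. Log2 of the intensity was taken with no pseudocount. Of 45037 probe sets other than 64 controls, 34945 had 1 gene symbol in the platform annotation, 932 several and 9160 none, and 34741 matched a RefSeq gene by Entrez ID. For each gene the probe set of highest mean log2 signal stood in. The main test was limma (version 3.58.1, in R 4.3.3) with lmFit and eBayes, two-sided, over all 18193 genes, with Benjamini-Hochberg adjustment. The model was tested on simulated data. A gene whose dimmer group lay below the control level has its fold as "at least", with the dim values raised to that level.

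Members and lists were chosen with earlier results of these data known, and no list was tested as a set. Per-array values are given for members whose groups do not overlap or whose unadjusted p was under 0.05, for the ATG8 genes and for the mitophagy receptors. From each related list up to 4 genes with both properties are named, some with their differences alone, and some other genes are named outside that rule. The alternatives were a mean-variance trend (also robust), the submitters' ANOVA, quantile normalization, median centring, a filter on dim probe sets, array weights, a replicate block, adding 32 to the signals, other probe set choices and leaving out each array.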

Additional observations from a re-analysis of the deposited data

How the results depend on the processing

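The count of members with an adjusted p under 0.05 was 0 in all 17 alternatives, with a smallest adjusted p of 0.143. The count with an unadjusted p under 0.05, 2 as reported, was 4 with the mean-variance trend and 4 with its robust form, 6 with the submitters' ANOVA, 1 with the mean of all probe sets, and 0 to 4 with 1 array left out. Of all genes, 8.9% had such a p as reported, 11% with the trend and 11% with its robust form. That share was 9.32% with the submitters' ANOVA, 8.93% with the mean of all probe sets, and 6.99% to 11.4% with 1 array left out. The count of members with groups that do not overlap was 7 as reported. It was 5 to 8 in the alternatives that kept all arrays, where 15.7% to 19.9% of all genes were apart. With 1 array left out it was 8 to 14, where 25.3% to 34.1% of all genes were apart. Leaving out an array cannot bring groups that were apart to overlap, so that range is no sign of stability. The median difference of the members, -0.03 as reported, was 0.084 after median centring, 0.042 with the mean of all probe sets and between -0.11 and 0.019 with 1 array left out. Of the 35 members, 20 kept their sign in all the alternatives in which they were fitted and 15 did not. In the related lists the count with an unadjusted p under 0.05 spanned 1 to 3 for other autophagy genes, 0 to 6 for the PINK1-parkin list, 2 to 8 for mTORC1 and AMPK control, 1 to 3 for transcription factors, 0 to 2 for the lysosome and 1 to 3 for fusion, and the highest counts with an array left out, 8 for mTORC1 and AMPK control and 3 for transcription factors, came without wild type replicate 3. Over the same alternatives the share of all genes with such a p spanned 6.99% to 13%, and it was 11.4% without wild type replicate 3. The cause of these shifts was not tested.

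Same-numbered wild type and knockout arrays correlated at 0.0741 to 0.103 in their deviations from the group means, and other pairs at -0.0947 to 0.0235. Not every pair passed 0.1, so the numbers were not taken to pair the samples, although 6 of 6 arrays correlated best with their own number, a hint from the data and not the design. With the replicate block 1 member, Gabarapl1, had an unadjusted p under 0.05, and 0 passed an adjusted p of 0.05. Signal over background limits Atg10, Atg16l2 and Atg4c, which lay below the control level in both groups.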

Other observations

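Bnip3l, the receptor best known for clearing mitochondria from reticulocytes, has no probe set of its own here, but 3 probe sets are annotated to it together with its pseudogene Bnip3l-ps. The brightest had signals of 46149, 53651 and 39552 on wild type arrays 1 to 3 and of 37175, 52053 and 40640 on knockout arrays 1 to 3. These groups overlapped, with a difference of -0.11 (SE 0.242), and the other probe sets differed by -0.17 and -0.01, also with overlap. The signals of the brightest reached 58.6% to 73.6% of the highest signal on their arrays. The gene and its pseudogene cannot be told apart by them.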
